A study of Mus musculus with 2 samples.

Results

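The transcripts of Otx2, Nr2e1, Pax6, Mitf, Meis1 and Meis2, 6 transcription factors of the developing eye, were examined for N6-methyladenosine (m6A) in native RNA of mouse retinal organoids. Members were the rows of the deposited plus tables that carry one of these gene names. They came to 32 of 26441 listed positions in replicate 1, where 3 of the 6 genes were listed, and to 72 of 50099 in replicate 2, where all 6 were. Over both replicates these are 77 different positions, counted per transcript, so that a site listed on several isoforms counts on each.

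Both libraries came from wild-type organoids of the Rx:GFP line at day 6, treated with AGN at 0.1 µM for those 6 days, and form 1 group (n = 2). Retinal organoids are balls of eye-like tissue that form when pluripotent stem cells differentiate in suspension, and the line carries a green fluorescent reporter named after the eye-field gene Rx (Rax). Poly(A) RNA was sequenced without copying it to DNA on a separate nanopore flow cell per library, using the RNA002 chemistry. The labels do not say whether the RNA came from separate cultures, so the spread between replicates may be technical, and there is no second genotype, time or treatment to compare with.

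m6A is the most common internal mark of messenger RNA. The METTL3-METTL14 complex writes it at adenosines in a short context, and reader proteins that bind it can change how long an mRNA lasts and how well it is translated. Otx2 is a homeobox factor of the forebrain and eye that is needed for pigment epithelium and later for photoreceptors and bipolar cells. Nr2e1 (Tlx) is an orphan nuclear receptor that keeps neural and retinal progenitors dividing. Pax6 carries a paired domain and a homeodomain and is required for eye formation. Mitf, a basic helix-loop-helix leucine zipper factor, directs pigment epithelium, and Meis1 and Meis2 are TALE homeodomain partners that regulate Pax6 in the lens.

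Each listed position lies on 1 of 4 motifs of 5 bases, which are the sequences on which every value below rests. They are shown in DNA letters, with the adenosine that m6A occupies in this context in capitals.
The motif ending in A: ggAca
The motif ending in C: ggAcc
The motif ending in T: ggAct
The motif starting with A: agAct
Below, each motif is named by the same letters in capitals throughout. Longer transcript sequence was not used here, so no position could be assigned to coding sequence or to an untranslated region. For each position the tables give the fraction modified, which is the share of reads scored as modified (0 to 1), and the coverage, which is the number of reads over the position. No listed position has fewer than 5 reads. The denominator of the fraction is not given: 51 of the 104 member values are whole multiples of 1 over the coverage (tolerance 0.00005), and 39 of the 104 are values of 0 or 1, which are so at any coverage. Of the other 65, 12 are whole multiples. Single fractions are therefore given without an interval, and those listed at 0 without an upper limit.

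Depth separated the genes into those that can be read site by site and those that cannot. Positions with at least 20 reads in replicate 2 were taken as primary sites, and 19 of the 72 met this minimum, 8 in Otx2 and 11 in Nr2e1. Just inside the limit was position 214 of Nr2e1 with 25 reads, and just outside were positions of Pax6 with 17. The highest coverage of a gene in replicate 2 was 55 reads in Nr2e1, 40 in Otx2, 17 in Pax6, 13 in Mitf, 6 in Meis2 and 5 in Meis1. Among all 8057 genes listed there, these values stood at the percentiles 80.6, 73.4, 46.4, 36.8, 9.09 and 3.11. In replicate 1 the highest coverage was 24 reads in Nr2e1, 14 in Otx2 and 7 in Pax6, and Mitf, Meis1 and Meis2 were not listed. Median coverage over all listed positions was 10 reads in replicate 1 and 12 in replicate 2. In bulk RNA, fewer cells of a type and less RNA per cell cannot be told apart, and a gene is listed only where a motif reaches 5 reads.

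The label of the samples was set against marker genes by whether each was listed. The retinal progenitor genes Rax, Lhx2, Six3 and Six6 were listed in both replicates. None of 5 photoreceptor, 6 pluripotency, 5 midbrain and hindbrain or 6 mesoderm and endoderm genes was listed in either replicate. Of 8 pigment cell genes, Pmel was listed in both (at most 6 and 14 reads) and Dct in replicate 2 (5 reads). Tyr, Tyrp1 and Rpe65 were not listed. Because a position must reach 5 reads to be listed, these counts do not measure expression.

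Otx2 (chromosome 14, 48895134 to 48911276; gene coordinates throughout as deposited) was listed on 1 transcript, ENSMUST00000118578.7, and in replicate 2 its fractions ran from 0.111 to 1. Its 8 primary sites lay between positions 987 and 2079, counted from the transcript start, with 34 to 40 reads each. The median fraction was 0.296. Over all 16212 sites of replicate 2 with at least 20 reads the median was 0.345. No position before 987 was listed on this transcript.

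The 3 GGACA sites of Otx2 were its highest in replicate 2. Position 1449 had 0.4 over 10 reads in replicate 1 and 0.75 over 38 in replicate 2, a mean of 0.575 ± 0.247 (SD, n = 2). Position 1667 was at 1 in each, over 12 and 40 reads. Position 2054 was listed in replicate 2 alone, with a fraction of 1 over 40 reads. A fraction of 1 is not rare at this motif: among 3786 GGACA positions of replicate 2 with 20 to 49 reads, 10.3% were at 1. Both Otx2 sites at 1 stood at percentile 96.1 of all GGACA sites with at least 20 reads (ties counted at the middle), and position 1449 at percentile 58.0.

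The 5 remaining sites of Otx2 had fractions from 0.111 to 0.4 in replicate 2. The GGACT at position 987 had 0 in replicate 1 (6 reads) and 0.182 in replicate 2 (34 reads). The GGACC sites at 1030 and 1170 had 0.25 and 0 over 6 reads each in replicate 1, and 0.4 over 34 and 0.111 over 35 reads in replicate 2. These GGACC sites lie 140 nt apart, and the first was higher in both replicates, by 0.25 in replicate 1. The AGACT at 1366 was 0.4 over 7 reads and then 0.192 over 38 reads. The GGACC at 2079 was 0.375 over 14 reads and then 0.143 over 40 reads. Against sites of their own motif in replicate 2, these 5 stood between percentiles 24.2 and 71.2.

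The sharpest step in Otx2 lay near the last listed position. In replicate 2 the GGACA at 2054 and the GGACC at 2079, 25 nt apart and both under 40 reads, had fractions of 1 and 0.143, which is 0.857 apart. Position 2054 was not listed in replicate 1, where its neighbours at 1667 and 2079 had 12 and 14 reads. Between those neighbours, position 2079 was lower than 1667 by a fraction of 0.625 in replicate 1 and of 0.857 in replicate 2. For scale, positions of the whole series with 20 to 49 reads in their shallower replicate differed between replicates by a root mean square of 0.114 (n = 3394), and those with 10 to 19 reads by 0.169 (n = 5727). The step was chosen for its size after the values were seen, so these figures give a scale and no test.

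**Figure D1:**
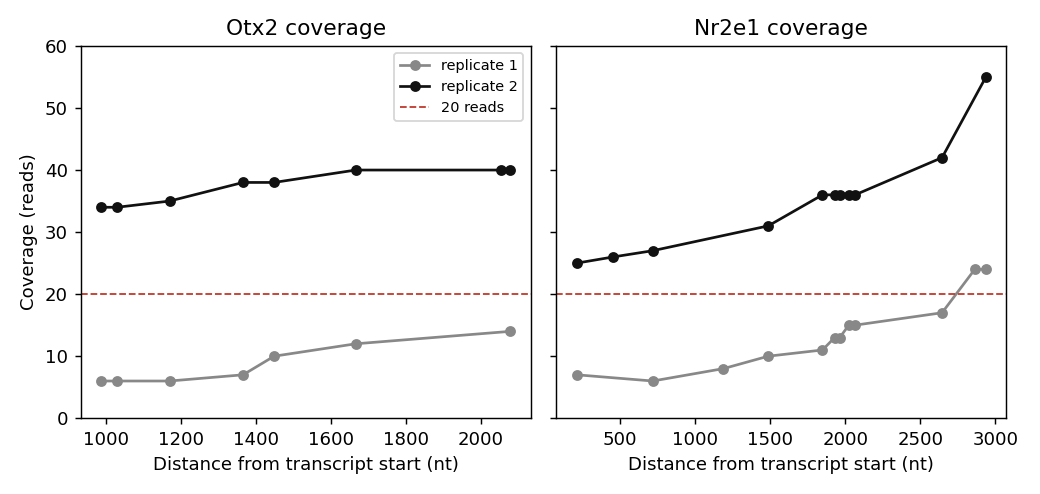
Coverage in reads (vertical axis) at each listed position of Otx2 (left) and Nr2e1 (right), against the distance from the transcript start in nt, for replicate 1 (grey) and replicate 2 (black); the dashed line marks 20 reads. Each listed position of replicate 2 lies above the line, from 34 to 40 reads in Otx2 and from 25 to 55 in Nr2e1, while replicate 1 passes it at 2 positions of Nr2e1.

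**Figure D2:**
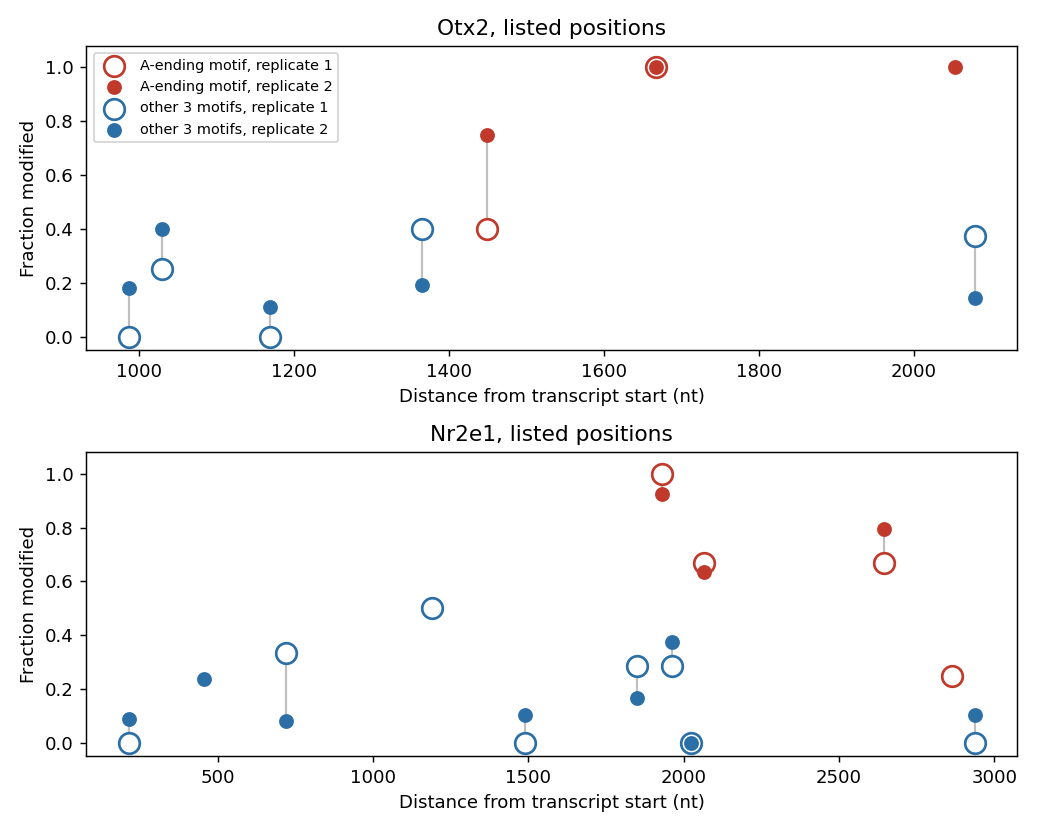
Fraction modified (vertical axis) against the distance from the transcript start in nt for Otx2 (top) and Nr2e1 (bottom); open circles are replicate 1, filled circles replicate 2, grey bars join the same position, red is the A-ending motif and blue the other 3 motifs. In replicate 2 the red points lie between 0.636 and 1, and the blue points between 0 and 0.4.

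Nr2e1 (chromosome 10, 42437959 to 42459628) was listed on ENSMUST00000019938.10 from position 214 to position 2937, with a wide range of fractions. In replicate 2 its 11 primary sites had a median fraction of 0.167, a lowest of 0 and a highest of 0.926. Among 1254 transcripts with at least 5 such sites this median stood at percentile 8.77, and that of Otx2 at percentile 38.2. Without replicate 2 the median of Nr2e1 was 0.286, over 12 positions with 6 to 24 reads, and its percentile was computed for replicate 2 alone. The share of GGACA among the sites was 27.3% in Nr2e1 and 37.5% in Otx2, against 35.6% over all sites. Coverage rose towards the end of the transcript, from 25 to 55 reads in replicate 2 and from 7 to 24 in replicate 1.

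Between positions 1849 and 2066 of Nr2e1, 5 sites shared the same depth of 36 reads in replicate 2, and their fractions rose and fell along the RNA. The GGACA at 1930 had 1 in replicate 1 (13 reads) and 0.926 in replicate 2, a mean of 0.963 ± 0.0524 (SD, n = 2). The AGACT 34 nt further on, at 1964, had 0.286 over 13 reads and 0.375 over 36 reads, a mean of 0.330 ± 0.0631 (SD, n = 2). The GGACT at 2024 was listed at 0 in both, over 15 and 36 reads. It was the lowest primary site of either gene, and 8.56% of 2665 GGACT positions of replicate 2 with 20 to 49 reads were at 0. At 2066, 42 nt after it, the next GGACA had 0.667 over 15 reads and 0.636 over 36 reads, a mean of 0.652 ± 0.0214 (SD, n = 2). The AGACT at 1849, which opens the stretch, had 0.286 over 11 reads and 0.167 over 36 reads. The step from 1849 up to 1930 was 0.714 and 0.759, and that from 2024 up to 2066 was 0.667 and 0.636.

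The GGACA at 2645 had 0.667 in replicate 1 (17 reads) and 0.794 in replicate 2 (42 reads). The AGACT at 2937, the deepest member position, had 0 over 24 reads and 0.103 over 55 reads. The AGACT at 214 had 0 over 7 reads and 0.087 over 25 reads, and that at 1488 had 0 over 10 reads and 0.103 over 31 reads. These 3 AGACT sites were at or near 0 in each library. The GGACC at 719 was 0.333 over 6 reads and then 0.08 over 27 reads, the largest difference between replicates in this gene. Position 457, an AGACT, was listed in replicate 2 alone with 0.238 over 26 reads.

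A pair of Nr2e1 positions was listed in replicate 1 alone. The AGACT at 1190 had 0.5 over 8 reads, and the GGACA at 2863 had 0.25 over 24 reads. In replicate 2 the listed neighbours of 1190 had 27 and 31 reads and those of 2863 had 42 and 55. The absence of these positions from replicate 2 therefore occurred between neighbours that each had more than 20 reads. Whether the tables list every examined motif or a subset is not stated, so an unlisted position has no value. The GGACA at 2863 was the lowest GGACA value of Otx2 and Nr2e1 in either replicate, and in replicate 1 it lay below the AGACT at 1190 and the GGACC at 719.

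Within a transcript, the SD over the 8 sites of Otx2 was 0.386, at percentile 89.1 of the 1254 transcripts, whose median SD was 0.309. That of Nr2e1 was 0.322, at percentile 57.5. By the range the order of the genes was the other way round, with 0.889 in Otx2 (percentile 69.3) and 0.926 in Nr2e1 (percentile 80.6). The order of neighbouring sites could be followed in both libraries for 15 pairs of positions in these genes, and 11 pairs differed in the same direction in both. Of the 6 pairs that set a GGACA against another motif, 5 did so. The exception was 1366 and 1449 of Otx2, equal at 0.4 in replicate 1 and 0.558 apart in replicate 2. Successive pairs share a position, and the share over all neighbouring pairs of the library was not computed. These counts of pairs therefore describe the 2 genes and set them against no background. By the sum of differences in lowest, median and highest fraction in replicate 2, the transcripts most like Otx2 were those of Lig1 (distance 0.00415; 7 sites), Echdc1 (0.0216; 5 sites) and Tcea1 (0.0221; 8 sites), compared over that replicate.

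In replicate 2 the median fraction at GGACA was above that at the other motifs in 5 of the 6 genes, Mitf with 1 position of each kind being the exception. There, 37.5% of all sites with at least 20 reads had a fraction of 0.5 or more, and 6 of the 19 primary sites did (31.6%, 95% Wilson interval 15.4% to 54.0%, which covers counting error only). This is near the background. By motif, 6 of 6 primary GGACA sites passed 0.5, against 64.1% of all GGACA sites, and 0 of 13 sites at other motifs did, against 22.8% of all such sites. In replicate 1, over all listed positions of Otx2 and Nr2e1, 4 of 6 at GGACA and 1 of 13 at other motifs had 0.5 or more. Over all listed positions of that library, 5977 of 8952 at GGACA and 4957 of 17489 at other motifs did. The GGACA share of the 2 genes was thus near the background in replicate 1. Their GGACA positions below 0.5 there were 1449 of Otx2 at 0.4 and 2863 of Nr2e1 at 0.25. In replicate 2 the median fractions at the primary sites were 0.86 at GGACA and 0.143 at other motifs, beside 0.667 and 0.238 over all sites of the library. With so few sites on 2 transcripts, whose reads are shared along each transcript, these shares describe the genes and were not tested.

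Over the 27 member positions listed in both replicates, 9 were GGACA and 18 were not. Positions were counted per transcript, so a Pax6 site listed on several isoforms entered more than once. By the alignment of isoforms given below, 1 GGACT site of Pax6 entered on 3 isoforms, and its GGACA entries also repeat sites. The pooled gap and that of Pax6 therefore rest on fewer separate sites than positions. The median at GGACA exceeded that at the other motifs by 0.542 in replicate 1 and 0.651 in replicate 2, a mean of 0.596 ± 0.0774 (SD, n = 2). The exact paired permutation test over the 2 replicates gave a two-sided p = 0.5, the smallest it can give. By gene the gap was 0.45 and 0.693 in Otx2, 0.667 and 0.692 in Nr2e1, and 0.5 and 0.434 in Pax6. It was positive in both replicates for each of these genes. The listed motifs differed between genes: AGACT made up 6 of 11 listed positions of Nr2e1 in replicate 2, 1 of 8 in Otx2 and 2 of 9 in Meis2, and none was listed in Pax6, Mitf or Meis1.

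**Figure D3:**
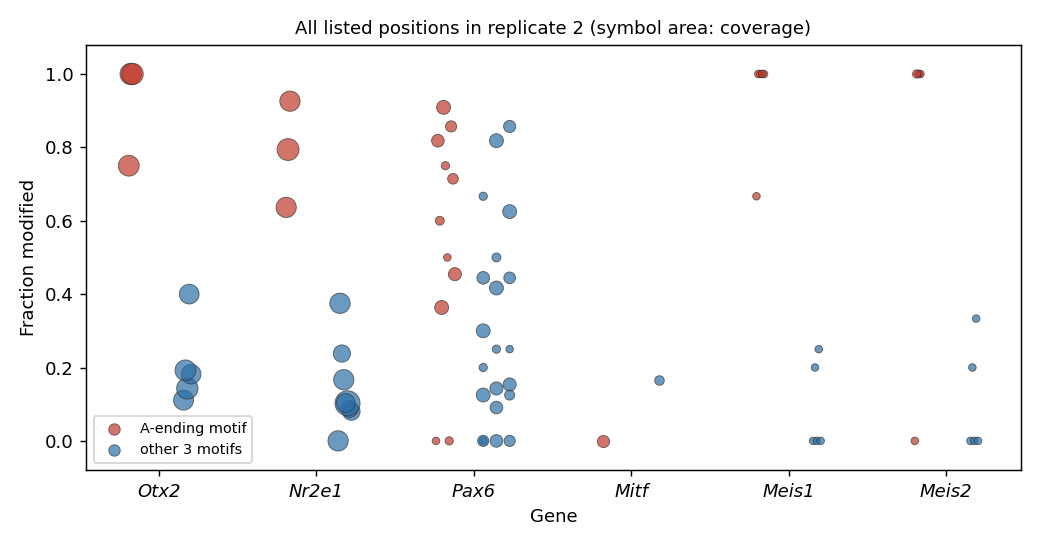
Fraction modified (vertical axis) at every listed position of replicate 2 for each gene (horizontal axis); red is the A-ending motif, blue the other 3, symbol area is proportional to coverage and sideways offsets have no meaning. In Otx2 and Nr2e1 the colours do not overlap, in Pax6 they do, and Mitf has 1 position of each colour with the red one at 0.

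Pax6 (chromosome 2, 105499245 to 105527709) was listed at 13 positions in replicate 1 and 32 in replicate 2, and its reads were divided over isoforms. It was listed on 3 transcripts in replicate 1 and 7 in replicate 2. By contrast, the other 5 members were listed on 1 transcript each, as were 75.5% of the 8057 genes of replicate 2, and 10 genes were on 7 or more. The deepest isoform, ENSMUST00000090397.12, had 15 to 17 reads at 8 positions in replicate 2. ENSMUST00000167211.8 had 9 to 15 reads at 10 positions, and ENSMUST00000111082.7 had 11 reads at 3. ENSMUST00000146803.3 (5 positions), ENSMUST00000111086.10 (2), ENSMUST00000111087.9 (3) and ENSMUST00000111085.7 (1) had 5 to 7 reads.

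Isoforms were laid over each other by the offset that matched the most positions of identical motif. The offset rested on 8 of 10 positions for ENSMUST00000167211.8 (374 nt), 5 of 5 for ENSMUST00000146803.3 (1043 nt) and 4 of 4 for ENSMUST00000111082.7 (72 nt). It rested on 2 of 3 for ENSMUST00000111087.9 (632 nt) and 2 of 2 for ENSMUST00000111086.10 (590 nt). The next best offset matched at most 2 positions in any of them. ENSMUST00000111085.7, with 1 position, could not be placed. On this scale, numbered along the deepest isoform, replicate 2 held 13 positions, of which 7 were listed on more than 1 isoform.

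No single isoform of Pax6 reached 20 reads, and the sum over isoforms did so at 7 of the 13 positions in replicate 2. The sum was highest at aligned position 2614, with 62 reads over 6 isoforms, of which the deepest gave 27.4%. It was 53 reads at 2249, 48 at 2339, 45 at 2663, 31 at 2085, 30 at 1608 and 20 at 2352. At the last listed positions these sums of 62 and 45 stand beside 40 reads in Otx2 and 55 in Nr2e1. In replicate 1 the sum was at most 18 reads. The tables do not say whether a read could be counted on several transcripts, in which case the sums would be too high.

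The isoforms gave like values at some aligned Pax6 positions and unlike values at others. At 1608, a GGACC, the fraction in replicate 2 was 0.818 over 17 reads on the deepest isoform and 0.857 over 13 reads on ENSMUST00000167211.8, and in replicate 1 it was 0.8 over 6 reads. These were the highest values at a motif other than GGACA in any member, at percentiles 91.4 and 92.8 of the 3003 GGACC positions of replicate 2 with 10 to 19 reads. At 2085, also a GGACC, the same isoforms gave 0.125 over 17 reads and 0.0909 over 14. In replicate 1 position 2085 gave 0.4 and 0 over 6 reads each on ENSMUST00000090397.12 and ENSMUST00000111082.7. Site 1608 was thus above site 2085 on each isoform that listed both.

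The GGACA at aligned position 2249 was listed on 5 isoforms of replicate 2. Its fraction was 0.909 over 17 reads, 0.818 over 14, 0.857 over 11 and 0.75 over 6 on 4 of them, and 0 over 5 reads on ENSMUST00000111087.9. The mean weighted by coverage was 0.771. In replicate 1 it was 0.667 and 1 over 6 reads each. This site was high on 4 of 5 isoforms, and the isoform at 0 was the shallowest and one of those placed by 2 positions.

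The last Pax6 positions were more mixed. At 2663, a GGACA, the isoforms of replicate 2 gave 0.364 over 17 reads, 0.455 over 15, 0.6 over 7 and 0 over 6, a weighted mean of 0.382. In replicate 1 they gave 0.5 over 6 reads and 0.667 over 5. At 2614, a GGACT 49 nt before it, they gave 0.625 over 17 reads, 0.143 over 15, 0 over 11, 0.5 over 7, 0.667 over 6 and 0 over 6, a weighted mean of 0.327. The largest contrast among better covered isoforms was at this position, between ENSMUST00000090397.12 at 0.625 and ENSMUST00000111082.7 at 0. In replicate 1 these had 0.333 over 6 reads and 0 over 7, in the same order. This contrast was chosen for its size after the values were seen, and it was not tested.

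**Figure D4:**
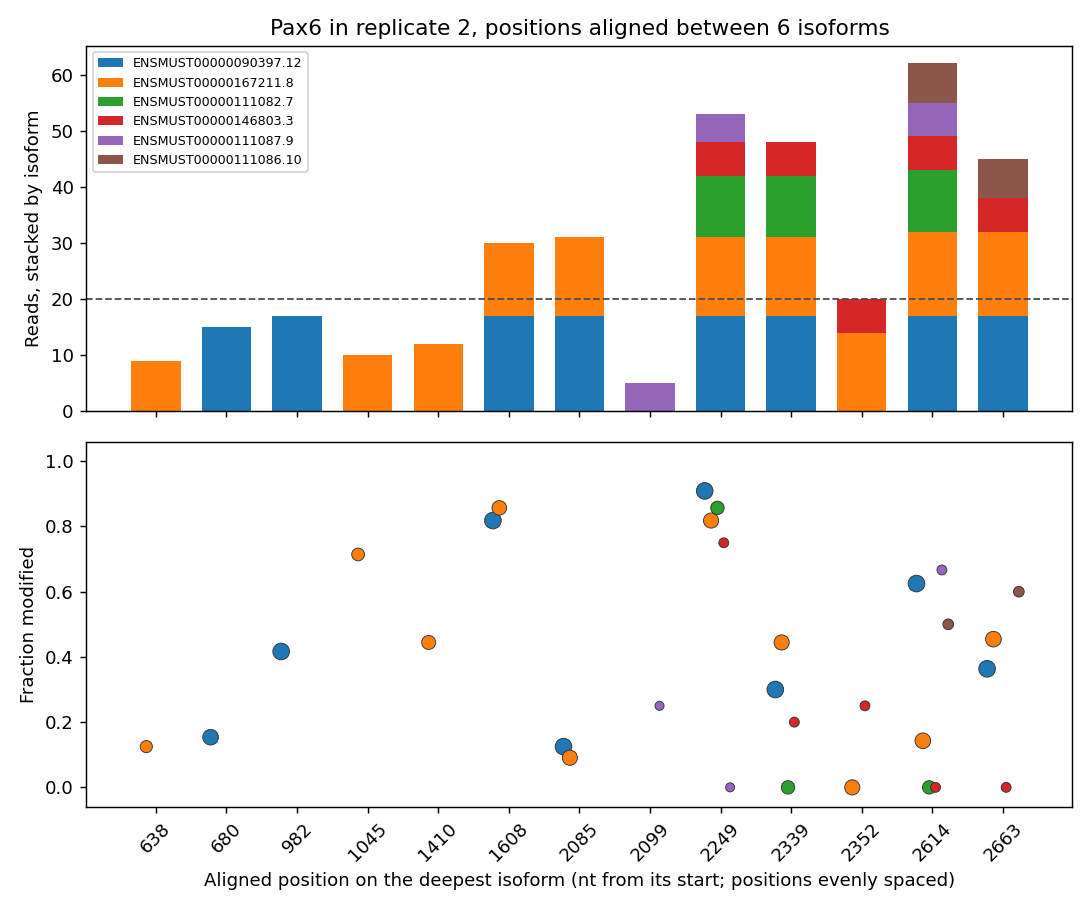
Pax6 in replicate 2 on 6 isoforms aligned by their motif positions, with aligned positions evenly spaced on the horizontal axis; the upper panel stacks the reads of each isoform (dashed line, 20 reads) and the lower panel gives the fraction modified on each isoform, with symbol area proportional to coverage. Stacked reads reach 62 at aligned position 2614, where no isoform has more than 17, and the fractions there run from 0 to 0.667.

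Mitf (chromosome 6, 97784013 to 97998310) was listed at 2 positions of ENSMUST00000043637.13 in replicate 2. The GGACC at 3378 had 0.167 over 8 reads. The GGACA at 4578 had a fraction of 0 over 13 reads. It stood at percentile 2.59 of 4897 GGACA positions with 10 to 19 reads, 5.19% of which were at 0. Nothing was listed before position 3378 of this long transcript.

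Meis1 (chromosome 11, 18829817 to 18968985) was listed at 10 positions of ENSMUST00000068264.13, all with 5 reads and all between 1666 and 2389. Its 5 GGACA positions, at 1783, 1998, 2118, 2204 and 2389, had fractions of 1, 0.667, 1, 1 and 1. The 5 others lay between 0 and 0.25. The colours of the plot by gene do not overlap for Meis1, but 5 reads give coarse values: in replicate 2, 32.1% of 6430 GGACA positions with 5 to 9 reads were at 1.

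Meis2 (chromosome 2, 115693545 to 115896320) was listed at 9 positions of ENSMUST00000102538.10 with 5 or 6 reads, between 1543 and 2362. Of its 4 GGACA positions, those at 1621, 1632 and 2362 had a fraction of 1 and that at 2136 had 0. The sites at 1621 and 1632 lie 11 nt apart, with 5 reads each. The 5 others ran from 0 to 0.333. Among GGACA positions of 5 to 9 reads 11.9% were at 0, as position 2136 was. Neither Meis gene nor Mitf has a value from replicate 1, so these 21 positions have no replicate check.

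Replicates were compared at the 27 positions listed in both, counted per transcript, so that some Pax6 sites enter on more than 1 isoform. These were 84.4% of the 32 member positions of replicate 1, where 70.9% of all positions recurred, and 37.5% of the 72 of replicate 2, where 37.4% did. Of the 19 primary sites 17 were listed in replicate 1, against 74.8% of all sites with at least 20 reads. The fraction was higher in replicate 2 at 14 positions, lower at 10 and equal at 3, with a median difference of 0.0182 and a range from -0.275 to 0.35. As a description over positions that share reads, Pearson's r was 0.859 and Spearman's rho 0.818 (n = 27). Nr2e1 differed least, by a root mean square of 0.117 over 10 positions. Otx2 differed by 0.203 over 7 and Pax6 by 0.204 over 10. Replicate 1 was also deepest in Nr2e1. Median coverage over its listed positions there was 13 reads, against 7 in Otx2 and 6 in Pax6. The genes were not compared at like depth, so this order does not rank how well each repeats.

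At the 16 member positions with 5 to 9 reads in their shallower replicate the root mean square difference was 0.193, and over all 7808 such positions 0.248. At 10 member positions with 10 to 19 reads it was 0.152, against 0.169 over 5727. The largest single difference was the 0.35 at position 1449 of Otx2. A difference above 0.2 was found at 9 of the 27, or 33.3%, of which 5 were in Pax6, 3 in Otx2 and 1 in Nr2e1. Over all 18756 positions listed in both the share was 22.1%. With 5 to 9 reads in the shallower replicate it was 7 of 16 member positions (43.8%) and 34.1% of all such positions. With 10 to 19 reads it was 2 of 10 and 20.4%.

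**Figure D5:**
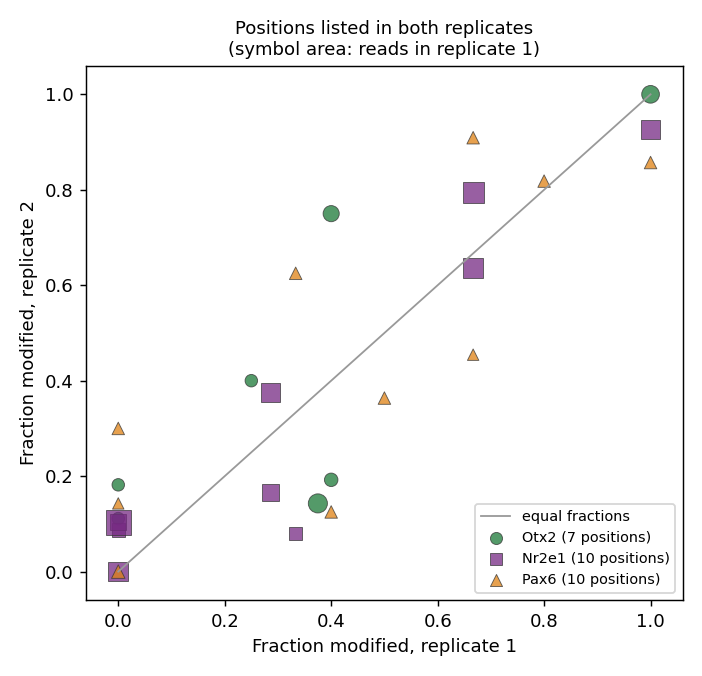
Fraction modified in replicate 1 (horizontal axis) and replicate 2 (vertical axis) at the 27 positions listed in both, with symbol area proportional to the reads in replicate 1; the line marks equal fractions. Single points lie up to 0.35 from the line in the vertical direction, the farthest being position 1449 of Otx2 (0.4 and 0.75).

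Of the 45 member positions found in replicate 2 alone, 32 lay on transcripts with no listed position in replicate 1. Another 10, all in Pax6, lay upstream of the listed positions there. The remaining 3, position 457 of Nr2e1, 2054 of Otx2 and 2267 of Pax6 isoform ENSMUST00000111082.7, lay between positions that replicate 1 listed with 6 to 14 reads. Conversely, 5 positions were found in replicate 1 alone, and 4 of them lay between listed positions of replicate 2.

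Relatives and partners of these factors gave a wider view. Of 20 such genes, 11 were listed in each replicate, and those with sites of at least 20 reads in replicate 2 included Pbx2 and Tle5. Pbx2 encodes a homeodomain partner of Meis proteins, and Tle5 a short Groucho-family co-regulator. The 8 sites of Pbx2 ran from 0.0202 to 0.808 and the 5 of Tle5 from 0.139 to 0.931. The direct paralogs Otx1, Crx and Nr2e3 were not listed, while Meis3 was listed with at most 6 and 13 reads.

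Among 16 eye-field and optic cup factors, 12 were listed in replicate 2 and 11 had a site with at least 20 reads. They held 82 such sites with a median fraction of 0.407, of which 36 (43.9%) reached 0.5. Over all 16212 sites of replicate 2 at that depth the median was 0.345, and 37.5% reached 0.5. The medians of these 11 genes ran from 0.174 in Lhx2 to 0.686 in Rax, beside 0.167 in Nr2e1 and 0.296 in Otx2. In replicate 1 the medians at that depth ran from 0.173 in Sox11 to 0.514 in Rax. The list held 46 such sites there, with a median fraction of 0.3, and 14 of them (30.4%) reached 0.5. Over all sites of replicate 1 at that depth the median was 0.353, so the list lay above the library median in replicate 2 alone. There Nr2e1 had 0.125 over 2 sites with at least 20 reads and 0.286 over all 12 positions. The difference between genes was not tested, and the share of each motif was not matched between them.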

How the data were processed

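The values were used as the authors deposited them. The coverage is a deposited count of reads per position, with no normalization, and the fraction modified is a deposited fraction whose denominator is not stated. Each table holds 1 library, and the aligner, modification caller, transcript annotation and thresholds are not given in the sources used here. The genome build mm10 is named in the submitters' processing notes, but the starts of all 6 genes differ from RefSeq GRCm38.p6 by over 1000 bases, so the build of the printed gene coordinates is unsettled. The end of each 1-nt interval was taken as the 1-based position.

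Positions were matched on transcript version and exact position with pandas 2.3.3 in Python 3.11.15. Percentiles count tied values at the middle. Pax6 isoforms were aligned to the deepest by the offset with the most identical motifs (at least 2). Named are all 6 genes, list genes by their sites with at least 20 reads, and the 3 transcripts most like Otx2. The offset search, percentile and replicate difference were tested on simulated data. The simulated isoforms shared more positions than the 2 that placed some Pax6 isoforms, so such weak placements were not covered. No read counts were derived from fractions, and no test across positions was run. Alternatives were other coverage minimums, 1 transcript per gene, a window for matching, other limits for a high fraction, weighting by coverage and leaving out a replicate. The members and lists were chosen with earlier results of these data known. The minus tables held no member. Some genes of these lists are not reported here.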

Additional observations from a re-analysis of the deposited data

How the results depend on the processing

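Of 37 alternative values, 25 stayed within the spread between replicates, the 95% Wilson interval or, for counts, a factor of 1.5, and 12 moved. Several of those that stayed could not have moved, so this tally does not measure robustness. Each listed position of Otx2 and Nr2e1 in replicate 2 has at least 25 reads, so minimums of 5 or 10 reads kept the same sites. Both genes were on 1 transcript, so taking 1 transcript per gene also changed nothing in them. With a minimum of 50 reads Otx2 kept 0 primary sites and Nr2e1 kept 1, whose fraction is below 0.5, so that 0 of the member sites (0%) reached it; no median could be given for Otx2. With 10 or more reads in each replicate, 11 positions were shared in place of 27, and with 10 reads Pax6 kept 20 of its 32 positions and Mitf, Meis1 and Meis2 kept 1 of 21. These follow from the coverages themselves. With 1 transcript, Pax6 kept 8 positions, and the highest single isoform gave 17 reads in place of the sum of 62. Without the 2 isoforms placed by 2 positions the sum was 49. The mean weighted by coverage was 0.486 in Otx2 and 0.333 in Nr2e1, above the medians of 0.296 and 0.167, since a few high sites raise a mean. Without replicate 2 the medians were 0.375 in Otx2 and 0.286 in Nr2e1, over at most 14 and 24 reads. The gap between GGACA and the other motifs kept its sign, with alternative values from 0.597 to 0.667. Where a replicate was left out, the gap was taken over all listed member positions of the other replicate. This gave 0.667 over 32 positions in replicate 1, where the 27 shared positions gave 0.542. Both samples form 1 group, so no groups were compared with the replicate number as a block, and the test of the gap by motif is paired within each replicate. Depth limits most values: 53 of the 72 member positions of replicate 2 have fewer than 20 reads.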

Other observations

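The depth of Otx2 differed between libraries by more than that of most genes. Summed over its 7 shared positions, coverage was 61 reads in replicate 1 and 259 in replicate 2, a ratio of 4.25. Over 1422 genes with at least 5 shared positions the median ratio was 2.19, and Otx2 stood at percentile 97.9. Among the 872 of these genes with a mean of 5 to 15 reads in replicate 1, it stood at percentile 96.8. Nr2e1 had a ratio of 2.75 (percentile 76.0) and Pax6 one of 2.61 (percentile 70.9). The ratio was 5.83 at position 1170 of Otx2 and 2.86 at position 2079: from the last listed position back to the first, coverage went from 14 to 6 reads in replicate 1 and from 40 to 34 in replicate 2. The cause was not tested.

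No AGACT position of either library was listed at a fraction of 1. The highest was 0.944 in both, over 5243 positions in replicate 1 and 10010 in replicate 2. The 3 other motifs each had positions at 1, such as 3509 of 17100 GGACA positions in replicate 2. Among the members the highest AGACT value was 0.5, at position 1190 of Nr2e1 over 8 reads. How the fractions of this motif were formed is not stated, and this was not tested.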
